A study of Mus musculus with 9 samples.

Results

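Fshr and Lhcgr encode the receptors for the pituitary gonadotropins, follicle-stimulating hormone (FSH) and luteinising hormone (LH). They were chosen by name and are 2 of the 55536 genes listed for 9 bulk RNA libraries of mouse ovary. Their Ensembl identifiers were matched to symbols of GENCODE release M21, and both were among the 16213 genes with enough counts to be tested. The study compared gene expression of granulosa cell tumours that arise in mice with that of normal ovaries. Its 3 groups of 3 libraries were ovaries labelled wild type (FOXL2 WT/WT), ovaries with hyperplasia (FOXL2 WT/C134W) and ovaries with a granulosa cell tumour (FOXL2 WT/C134W). FOXL2 is a forkhead transcription factor of granulosa cells, and the C134W change is the one known from the adult type of this tumour in women. The 6 libraries of the mutant groups thus share 1 heterozygous genotype and differ in the labelled disease state, and no group had the mutation without a lesion. The animals' age and strain and the way the allele was made are not given in the sources used here, and no label says that libraries of a group came from separate mice, so the spread behind each p-value is that between these libraries and may be partly technical.

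Both receptors are G protein-coupled receptors with a large extracellular hormone-binding part, and both act mainly through the stimulatory G protein, adenylyl cyclase, cAMP and protein kinase A. In the mouse ovary FSH receptor is a granulosa cell protein that drives follicle growth, aromatase and inhibin. LH receptor is found on theca cells, on granulosa cells of follicles close to ovulation and on luteal cells, where it drives the steps from cholesterol to progesterone and, at the LH surge, the programme of ovulation.

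The genes lie beside each other on the minus strand of mouse chromosome 17 (build GRCm38). Lhcgr (ENSMUSG00000024107) spans chr17:88716481-88791990 and Fshr (ENSMUSG00000032937) chr17:88984952-89200675, with 192961 bases between them, and 0 other annotated genes overlap either one. The annotation gives Fshr 1 transcript of 2360 bases in 10 exons. Lhcgr has 4, and only Lhcgr-201, with 6828 bases in 11 exons, is annotated as protein-coding. The 250 bases before each RefSeq start site are printed because the transcripts of this neighbouring pair were measured at unlike levels, and because several factors listed further on are named for these promoters. They were read from RefSeq on GRCm38.p6 on the minus strand, chr17:89200676-89200925 for Fshr and chr17:88792015-88792264 for Lhcgr. Capitals mark every match, on either strand, to the 7 motifs searched.
Fshr promoter: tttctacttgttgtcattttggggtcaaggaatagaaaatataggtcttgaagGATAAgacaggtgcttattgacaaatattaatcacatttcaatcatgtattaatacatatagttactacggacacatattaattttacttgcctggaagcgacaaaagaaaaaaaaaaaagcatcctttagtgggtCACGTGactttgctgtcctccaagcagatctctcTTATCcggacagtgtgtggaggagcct
Lhcgr promoter: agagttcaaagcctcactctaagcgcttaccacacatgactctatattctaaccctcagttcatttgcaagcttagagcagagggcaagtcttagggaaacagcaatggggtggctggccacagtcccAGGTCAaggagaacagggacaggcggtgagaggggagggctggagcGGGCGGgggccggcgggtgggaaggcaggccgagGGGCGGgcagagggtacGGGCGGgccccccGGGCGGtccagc
The windows differ in composition, with 36.8% G and C in that of Fshr and 63.2% in that of Lhcgr, against a median of 52.4% over 32851 mouse promoter windows. The Fshr window holds CACGTG, the E-box bound by USF factors, 61 to 56 bases before the start. It also holds GATAA, the GATA factor core, at 2 places, 1 on each strand. CACGTG was present in 6.02% and GATAA in 22.6% of all windows. The Lhcgr window holds neither. It holds GGGCGG, the GC box of Sp factors, at 4 places, and AGGTCA, a nuclear receptor half-site, at 1 place, while the Fshr window holds neither of these. GGGCGG was present in 32.7% and AGGTCA in 14% of all windows. The longer core AAGGTCA, which contains AGGTCA, the forkhead core GTAAACA and the cAMP response element TGACGTCA were in neither window and in 4.08%, 3.17% and 1.55% of all windows. A match describes letters only, and no binding was measured here.

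Library totals ran from 11661820 counts in tumour library 3 to 20890487 in wild-type library 1. Pearson r between libraries, across tested genes on log2(CPM + 1), lay between 0.874 and 0.979, and genes are not independent replicates. Wild-type library 1 (0.914 and 0.922 with the other wild-type libraries) and tumour library 2 (0.898 and 0.908 with the other tumours) stood apart from their groups. The most alike pair, hyperplasia library 3 and tumour library 3 (r = 0.979), share a title stem in the labels, which do not say whether they come from 1 animal. Fitted differences of the receptors between tumour and wild type are given with and without these libraries.

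Fshr was high in 2 of the 3 tumours and undetected in the third. Its levels in CPM (counts relative to the library total, which the TMM method adjusts) were 18.9, 8.36 and 32.7 in wild-type libraries 1 to 3. In hyperplasia they were 7.98, 2.46 and 36.1, and in tumours 81.8, 0 and 80.7. The groups overlapped, because tumour libraries 1 and 3 lay above every other library and tumour library 2 below every other one. The 0 in tumour library 2 came from 12886780 counts, which allows up to 3 counts or 0.293 CPM, a limit that covers counting error only. Against that limit, Fshr was at least 279-fold higher in tumour library 1 and at least 276-fold higher in tumour library 3. The lowest of the other 8 libraries, hyperplasia library 2 with 34 counts, was at least 8.42-fold higher. Tumour libraries 1 and 3 stood 4.09 and 4.04 times above the wild-type mean and 2.50 and 2.47 times above the highest wild-type library.

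Fshr averaged 20.0 ± 12.2 CPM in the wild-type libraries, 15.5 ± 18.1 in hyperplasia and 54.2 ± 46.9 in tumours (SD, n = 3 each). The order of the means was thus tumour, wild type, hyperplasia, and no neighbouring pair in it differed by more than its spread. Within wild type the highest library was 3.90 times the lowest, and within hyperplasia 14.7 times. In TPM, the deposited level per transcript length, Fshr stood at 9.57, 6.67 and 25.3 in wild type, 6.17, 1.91 and 26.6 in hyperplasia and 56.7, 0 and 60.8 in the tumours. By TPM, 14.2% and 13.6% of the genes above 0 were higher than Fshr in tumour libraries 1 and 3, against 27.2% to 48.9% in wild type.

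Lhcgr was lower in every tumour than in every wild-type library. The wild-type libraries had 838, 226 and 346 CPM, those of hyperplasia 444, 179 and 77.5, and the tumours 67.6, 108 and 67.5. Hyperplasia library 1 lay inside the wild-type range, library 2 between wild type and tumours, and library 3 inside the tumour range. Group means were 470 ± 324, 233 ± 189 and 81.2 ± 23.6 CPM (SD, n = 3 each), so that the wild-type mean was 5.79 times the tumour mean. The lowest wild-type library was 2.09 times the highest tumour. The order of the means was wild type, hyperplasia, tumour, and hyperplasia overlapped both neighbours. Wild-type library 1 alone was 2.93 times the mean of the other wild-type libraries. The highest library was 3.70 times the lowest in wild type, 5.73 times in hyperplasia and 1.61 times in the tumours, the group with the narrowest spread of the 3. Lhcgr in TPM was 199.6, 96.7 and 146 in wild type, 207, 86.4 and 35.4 in hyperplasia and 38.9, 48.6 and 27.9 in the tumours, again without overlap between tumours and wild type. In bulk ovary RNA, fewer cells of a type and less RNA per cell cannot be told apart.

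**Figure D1:**
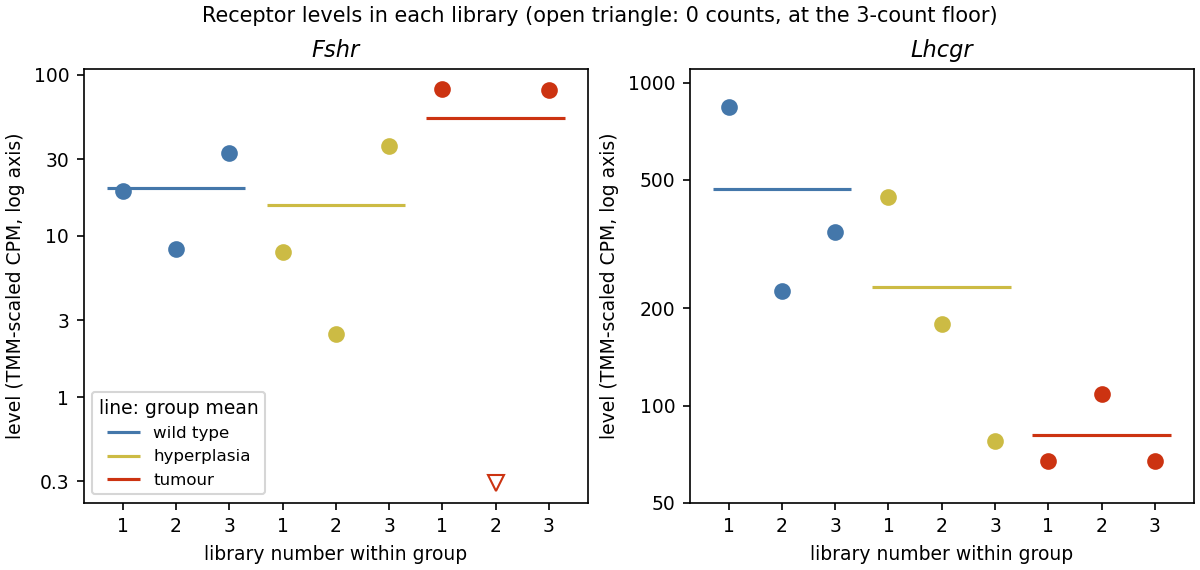
Levels of Fshr (left) and Lhcgr (right) in CPM on log axes, 1 point per library, with a line at each group mean. The Fshr point drawn as an open triangle is tumour library 2, which had 0 counts and is set at the limit of 3 counts, while tumour libraries 1 and 3 are the highest. All 3 tumours lie below all 3 wild-type libraries for Lhcgr.

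Neither receptor passed the test in any comparison. With edgeR's quasi-likelihood test and Benjamini-Hochberg adjustment over 16213 genes, 0 of the 2 receptors were called between tumour and wild type, where 1.6% of all genes were called. At an unadjusted p under 0.05, which 20.1% of all genes met, 1 of the 2 was counted, Lhcgr. The fitted log2 fold change of Lhcgr in tumours was -2.53 (SE 0.68, adjusted p = 0.0869, edgeR). All 3 tumours lay below all 3 wild-type libraries, a separation that 13.4% of all tested genes showed in this direction. DESeq2's Wald test gave the same log2 fold change with an adjusted p of 0.00251, and edgeR without the filter on low counts an adjusted p of 0.0342, so the call depended on the method. Without wild-type library 1 the log2 fold change of Lhcgr was -1.82 (adjusted p = 0.189, edgeR), and without wild-type library 1 and tumour library 2 it was -2.11 (adjusted p = 0.155, edgeR). Without hyperplasia library 3 and tumour library 3 it was -2.41 (adjusted p = 0.172, edgeR), and with a term for their title stem -2.13 (adjusted p = 0.202, edgeR). For Fshr the log2 fold change between tumour and wild type was 1.44 (SE 1.45, adjusted p = 0.628, edgeR). Without tumour library 2 it was 2.03 (adjusted p = 0.242, edgeR), and limma-voom put it at -1.02. Without wild-type library 1 and tumour library 2 the value for Fshr was 1.96 (adjusted p = 0.325, edgeR). Without hyperplasia library 3 and tumour library 3 it was 1.04 (adjusted p = 0.793, edgeR).

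Hyperplasia and wild type were not told apart for either gene. The log2 fold change was -0.36 (SE 1.43) for Fshr and -1.01 (SE 0.65) for Lhcgr, each with an adjusted p of 0.999 (edgeR). With 1 library left out the value for Fshr lay between -1.93 and 0.19, the highest without wild-type library 3 and the lowest without hyperplasia library 3. Here edgeR called 0% of all genes, while 572 genes (3.53%) had an unadjusted p under 0.05 and DESeq2 called 18. Without wild-type library 1 the value for Lhcgr was -0.29. Between tumour and hyperplasia, where 0.185% of all genes were called, Lhcgr had a log2 fold change of -1.52 (SE 0.66, adjusted p = 0.343, edgeR), with an unadjusted p under 0.05 as for 14.1% of all genes. Fshr had 1.80 (SE 1.46, adjusted p = 0.621, edgeR). When the mean of both mutant groups was set against wild type, where 0.0123% of all genes were called, the values were -1.77 (SE 0.53, adjusted p = 0.221, edgeR) for Lhcgr and 0.54 (SE 1.26, adjusted p = 0.909, edgeR) for Fshr. Lhcgr was again under 0.05 unadjusted, as were 11.8% of all genes, and DESeq2 gave it an adjusted p of 0.0456. The biological coefficient of variation, edgeR's measure of spread between libraries, was 1.22 for Fshr and 0.546 for Lhcgr, against 0.432 in common over all genes. These comparisons share libraries and are not independent of each other.

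**Figure D2:**
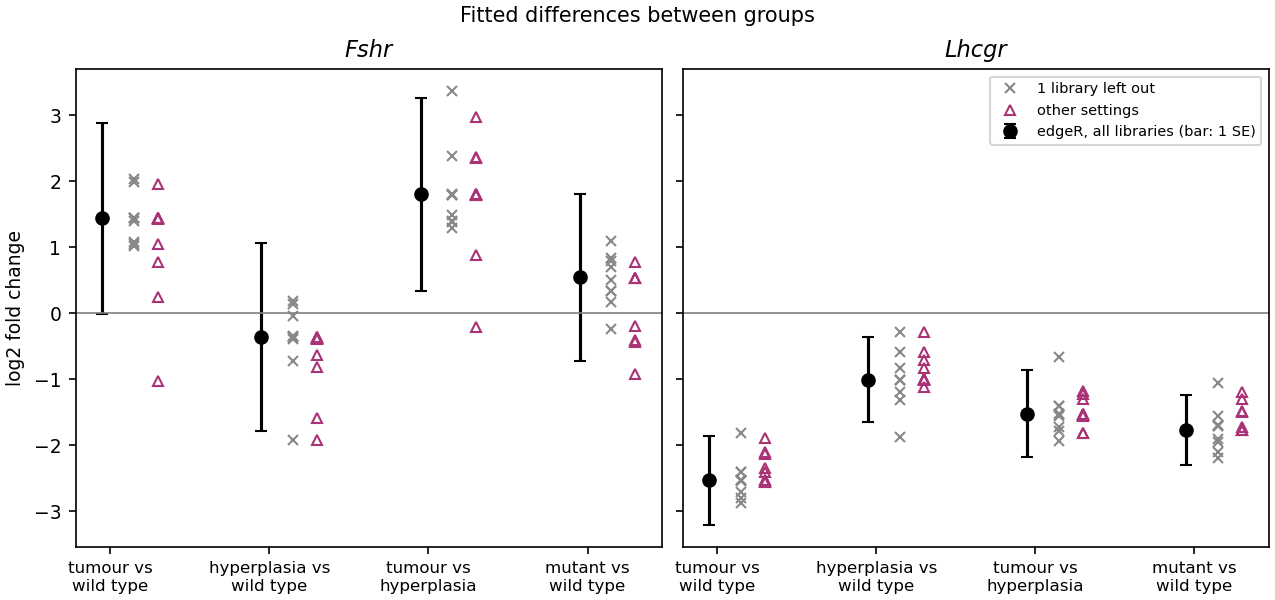
Fitted log2 fold changes of Fshr (left) and Lhcgr (right) in the 4 comparisons. Filled circles with bars are the edgeR values with 1 SE, crosses the values with 1 library left out, and triangles the other settings tried. Every value for Lhcgr lies below 0, while values for Fshr lie on both sides of 0 in each comparison.

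The balance between the receptors was turned around in 2 of the 3 tumours. TPM is per length, so the genes can be set against each other within a library. In wild type, Lhcgr stood 20.9, 14.5 and 5.79 times above Fshr. In hyperplasia libraries 1 and 2 it stood 33.5 and 45.2 times above, and in hyperplasia library 3 only 1.33 times. In tumour libraries 1 and 3 Fshr stood above Lhcgr, 1.46 and 2.18 times. In tumour library 2 Lhcgr was at least 379 times above the limit for Fshr, further than in any other library. On the log2 scale the mean ratio of Fshr to Lhcgr was -3.59 ± 0.95 in wild type, -3.66 ± 2.82 in hyperplasia and -2.30 ± 5.43 in the tumours (SD, n = 3 each), with tumour library 2 set at its limit. The difference between tumour and wild type was 1.29 (exact two-sided permutation p = 0.8) and lay within the spread between tumours. Without tumour library 2 it was 4.43, for which 2 libraries against 3 allow an exact two-sided permutation p no lower than 0.1. The other differences were -0.07 for hyperplasia against wild type (exact permutation p = 1), 1.36 for tumour against hyperplasia (exact permutation p = 0.8) and 0.61 for both mutant groups against wild type (exact permutation p = 0.798). With 3 libraries against 3 such a test cannot go below 0.1, and with 6 against 3 not below 0.0119.

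**Figure D3:**
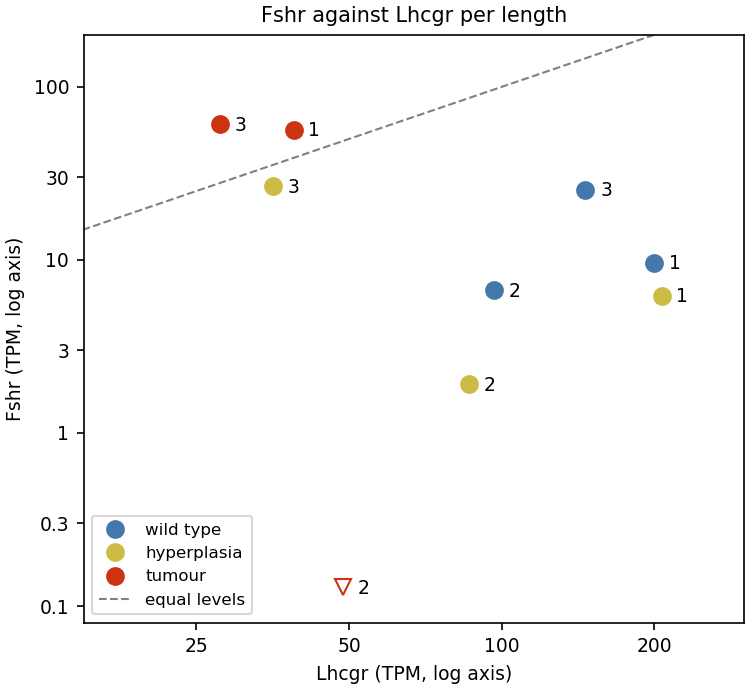
Fshr against Lhcgr in TPM on log axes, 1 point per library, numbered within its group. The dashed line marks equal levels. Tumour libraries 1 and 3 lie above it and the other 7 libraries below it, with tumour library 2 (open triangle) drawn at its 3-count limit of 0.128 TPM.

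Tumour library 2 was unlike the other tumours in more than Fshr. Of the tested genes, 29 (0.179%) had 0 counts there and at least 30 in each of the other 8 libraries, against 5 such genes in wild-type library 1, 1 in hyperplasia library 2 and 0 in each of the others. Fshr was among the 29, together with Akr1c18, a progesterone-degrading enzyme, and Muc16 and Bnc1, genes of the ovarian surface epithelium. Granulosa cell genes varied in the same library. Amh, the anti-Mullerian hormone of follicles, stood at 0.06 TPM there (1 count), against 7.93 and 43.8 in the other tumours and 165 to 261 in wild type. Gatm, a creatine synthesis enzyme on the granulosa list, stood at 7.85 TPM, the lowest of the 9 libraries, against 20.8 to 61.8 in the others. Inha, the inhibin alpha subunit, stood at 2096 TPM there, against 2806 and 3885 in the other tumours and 1034 to 1898 in wild type. Foxl2 stood at 70.4 TPM, Esr2, the oestrogen receptor of granulosa cells, at 56.4 and Cyp19a1, aromatase, at 35.0. In CPM, Amh and Gatm were likewise lowest of the 9 libraries in tumour library 2, but Inha and Esr2 were not low there. Inha stood at 2820 CPM, between the other tumours (2402 and 3021), and Esr2 at 182 CPM, also between them (231 and 163). Foxl2 stood at 227 CPM, below the other tumours (268 and 388) and above every wild-type library. The summed level of 6 surface epithelium markers was 4.42 TPM in tumour library 2, 199.9 to 285 in wild type and 778 and 1988 in the other tumours. The part of these differences in the Fshr value was not tested.

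The mean length of the Lhcgr transcripts to which counts were assigned was lower in the mutant groups. The deposited tables give each gene a mean transcript length, weighted by the estimated share of its transcripts, and Lhcgr is the receptor for which this can vary. It was 4772, 4208 and 4145 bases in wild type, 3787, 3656 and 3679 in hyperplasia and 2806, 2315 and 4123 in the tumours. All 6 mutant libraries lay below all 3 wild-type libraries, tumour library 3 by a small margin. Means were 4375 ± 345, 3707 ± 69.8 and 3081 ± 935 bases (SD, n = 3 each). The mutant libraries were shorter by a mean difference of -981 bases (exact two-sided permutation p = 0.0476), a measure taken up after its values had been seen. That p moved to between 0.0536 and 0.143 when any 1 library was left out. Of 13564 tested genes with several transcripts, 0.848% were shorter in every mutant library than in every wild-type one and 0.951% longer. The difference was -1293 bases for tumours (exact permutation p = 0.1) and -668 for hyperplasia (exact permutation p = 0.1) against wild type, which is the lowest p that 3 against 3 allow. Groups as separate as these, with the lesion shorter, were found for 5.77% of the same genes for tumours and 3.35% for hyperplasia. Between tumour and hyperplasia it was -626 bases (exact permutation p = 0.4).

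The annotated Lhcgr transcripts are the protein-coding Lhcgr-201 (6828 bases), the nonsense-mediated decay candidate Lhcgr-203 (3957), the non-coding Lhcgr-204 (1073) and the retained-intron Lhcgr-202 (653). The mean length bounds the share of the coding one. It lay between 28.4% and 66.7% of Lhcgr transcripts in wild-type library 1, between 8.73% and 57.6% in library 2 and between 6.54% and 56.5% in library 3. In hyperplasia the upper bounds were 50.7%, 48.6% and 49.0% and the lower bounds 0. In tumours the upper bounds were 34.9%, 26.9% and 56.2%, and a lower bound above 0, 5.79%, was given by tumour library 3 alone. These ranges overlap, so the share of the coding transcript itself was not resolved. Lhcgr-203 differs from the coding transcript in its first exon, 192 against 178 bases. Its last exon is shorter, 3004 against 5864 bases, and begins at position 88742709 rather than 88743137 on the minus strand. It also lacks the first 25 bases of exon 9, and its reading frame across these differences was not followed. The start of exon 9 is printed to show the missing bases, with the 25 bases (chr17:88753905-88753929, GRCm38, minus strand) in capitals.
Start of Lhcgr exon 9: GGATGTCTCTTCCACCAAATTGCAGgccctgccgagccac
TPM divides by this length, so the same number of counts on shorter transcripts gives a higher level, and the groups lay closer in TPM than in CPM. On log2(TPM + 1) the difference between tumour and wild type was -1.89, against -2.53 from counts. These values also differ in scaling and in the model fitted. From counts limma-voom gave -2.34, and the median of all genes on log2(TPM + 1) was -0.12. The part of transcript length in the gap was not tested.

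**Figure D4:**
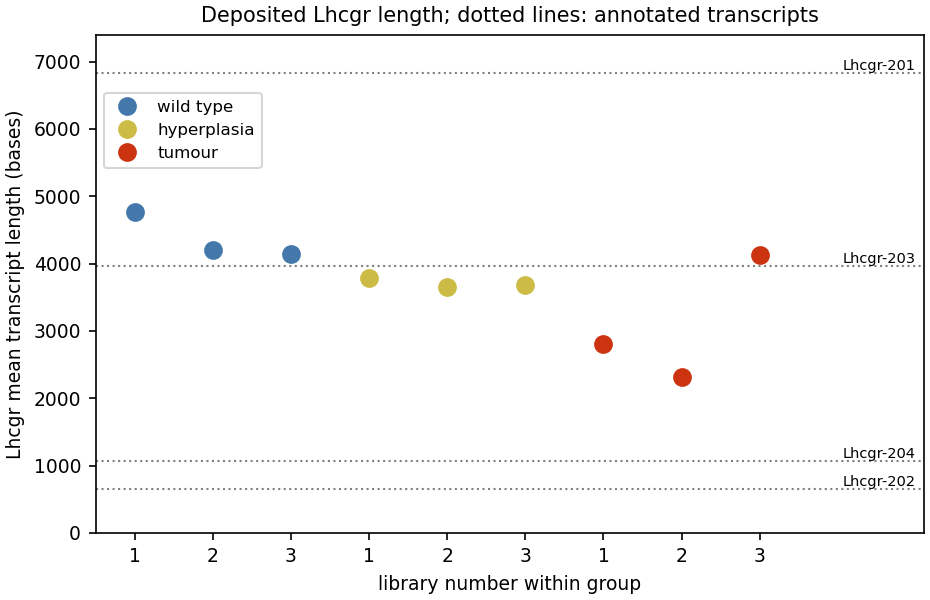
Deposited mean length of Lhcgr transcripts in bases, 1 point per library, with dotted lines at the lengths of the 4 annotated transcripts. All 3 wild-type libraries lie above the length of Lhcgr-203 and above all 6 mutant libraries, and tumour libraries 1 and 2 lie lowest.

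The hormones that these receptors bind are made in the pituitary, and their subunits were near or at 0 in the ovary. Fshb, the FSH beta subunit, had 0 counts in all 9 libraries. Lhb, the LH beta subunit, had 0 to 6 counts. Cga, the alpha subunit that FSH and LH share, had 18 counts in tumour library 2 and 0 to 2 in the others. Tshb, the thyrotropin beta subunit, had 0 to 3 and Gphb5, a subunit of thyrostimulin, 0 to 1. Gpha2, the other thyrostimulin subunit, was the 1 gene of the 6 with enough counts to be tested. Its log2 fold change between tumour and wild type was 0.96 (adjusted p = 0.635, edgeR).

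The closest relatives of the receptors share their leucine-rich repeats. Of those with enough counts to be tested, edgeR called 0 in every comparison, beside 0% to 1.6% of all genes. Tshr, the thyrotropin receptor, stood at 0 to 0.66 TPM, and the relaxin-family receptors Rxfp1 and Rxfp2 at no more than 0.08 and 0.23 TPM. Lgr4, Lgr5 and Lgr6, receptors for R-spondins that raise Wnt signalling, had enough counts to be tested. Lgr5 stood at 30.8, 0.33 and 21.3 TPM in tumours, so that it too was lowest in tumour library 2. Its wild-type values were 4.44, 13.6 and 19.6 TPM. Lgr6 stood at 5.26, 6.39 and 8.98 TPM in wild type, 24.4, 15.8 and 12.1 in hyperplasia and 8.15, 6.86 and 6.51 in the tumours. All hyperplasia libraries were above all others for Lgr6 (4.63% of all genes lay above every wild-type library), with a log2 fold change of 1.16 (SE 0.32, adjusted p = 0.999, edgeR) against wild type and -0.93 (adjusted p = 0.248, edgeR) for tumour against hyperplasia. Of the 3 tested relatives, edgeR and DESeq2 called 0, and 1, Lgr6, had an unadjusted p under 0.05 between hyperplasia and wild type, beside 3.53% of all genes. Lgr6 was also under 0.05 unadjusted between tumour and hyperplasia, beside 14.1% of all genes, and for both mutant groups against wild type, beside 11.8%.

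The intracellular machinery downstream of both receptors was measured in every library, and edgeR called none of it. Of 31 genes of cAMP and protein kinase A transduction, 30 were tested. Between tumour and wild type edgeR called 0 of them, against 1.6% of all genes, while 8 had an unadjusted p under 0.05, beside 20.1% of all genes, and DESeq2 called 4, beside 10.8%. Their median log2 fold change was 0.22, beside 0.011 over all genes. The smallest adjusted p belonged to Prkar1b, a regulatory subunit of protein kinase A (log2 fold change 1.00, adjusted p = 0.0667, edgeR). It stood at 7.55, 18.0 and 17.5 TPM in wild type, 27.3, 31.2 and 33.0 in hyperplasia and 23.0, 21.2 and 27.6 in the tumours, so that all 6 mutant libraries were above all 3 wild-type ones. That separation was shown by 1.63% of all genes. Pde3a, a cAMP phosphodiesterase, had a log2 fold change of -2.02 (adjusted p = 0.0764, edgeR). Gnas, the stimulatory G protein alpha subunit, stood between 680 and 1227 TPM in all libraries. Prkar2b, a regulatory subunit that FSH induces, stood at 527, 229 and 893 TPM in tumours and at 189 to 361 TPM in wild type. In CPM it stood at 1009, 649 and 1681 in tumours and at 369 to 638 in wild type. In hyperplasia against wild type, 0 of the 30 were called by edgeR or DESeq2, where edgeR called 0% of all genes. There 3 had an unadjusted p under 0.05, beside 3.53% of all genes, and the median was 0.24, beside -0.0029.

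The genes that switch such receptors off or carry them inside the cell were likewise not called. All 15 listed kinases, arrestins, regulators and adaptors were tested. Between tumour and wild type edgeR called 0, beside 1.6% of all genes, 2 had an unadjusted p under 0.05, beside 20.1%, and DESeq2 called 1, beside 10.8%. The median log2 fold change was 0.16. Grk5, a receptor kinase, had the smallest adjusted p (log2 fold change 0.95, adjusted p = 0.119, edgeR). Rgs4, which shortens G protein signals, stood at 9.34 to 11.1 TPM in hyperplasia and 1.71, 2.63 and 3.91 in tumours (log2 fold change -1.57, adjusted p = 0.116, edgeR).

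Genes that FSH is known to change in granulosa cells did not move together. All 18 listed were tested between tumour and wild type, with 1 called lower, beside 1.25% of all genes, and 0 called higher. The median log2 fold change was 0.35, beside 0.011 over all genes. The called gene was Sgk1, a kinase that FSH induces through cAMP, which fell (log2 fold change -3.66, SE 0.55, adjusted p = 0.0335, edgeR). Its levels were 322, 168 and 216 TPM in wild type, 130, 213 and 76.9 in hyperplasia and 16.4, 13.0 and 28.2 in the tumours. Every tumour lay below every other library for Sgk1. The Sgk1 call was lost without wild-type library 1 or 3 or any 1 of the tumours (adjusted p = 0.0523 to 0.123, edgeR). Irs2, an adaptor of insulin and IGF signals, had a log2 fold change of 1.29 (adjusted p = 0.0997, edgeR). Cyp19a1 stood at 14.3, 6.67 and 43.0 TPM in wild type, 79.6, 2.12 and 19.6 in hyperplasia and 1.45, 35.0 and 23.8 in the tumours, with overlap between all groups. Tumour library 1 had the lowest Cyp19a1 of all, and tumour library 2 the highest of the tumours. The part of the Fshr level in these genes was not tested.

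Genes that LH is known to raise had a median below 0 in tumours, and 1 of them passed the test. Of 25 listed, 21 were tested. Between tumour and wild type, 16 had a negative fitted value and 5 a positive one. The median log2 fold change was -0.90, beside 0.011 over all genes. EdgeR called 1 lower, beside 1.25% of all genes, and 0 higher, while 9 were lower at an unadjusted p under 0.05, beside 11.7% of all genes, and DESeq2 called 6, beside 10.8%. The called gene was Cyp11a1, the enzyme that cleaves the cholesterol side chain, which fell (log2 fold change -3.25, SE 0.56, adjusted p = 0.0403, edgeR). It stood at 5438, 4970 and 4571 TPM in wild type, 4145, 5766 and 1626 in hyperplasia and 502, 514 and 389 in the tumours. As with Lhcgr, hyperplasia library 3 was the lowest of its group, and every tumour was below every wild-type library. The Cyp11a1 call was lost without any 1 of the wild-type libraries, hyperplasia library 2 or any 1 of the tumours (adjusted p = 0.0504 to 0.127, edgeR). Star, which carries cholesterol into mitochondria, had a log2 fold change of -1.93 (adjusted p = 0.0647, edgeR), and Runx2, a transcription factor induced at ovulation, -3.81 (adjusted p = 0.062, edgeR). Ptgs2, the prostaglandin synthase of ovulation, was at 0.07, 0.02 and 0 TPM in tumours and at 1.65 to 3 TPM in hyperplasia. Between hyperplasia and wild type, edgeR and DESeq2 called 0 of the 21, where edgeR called 0% of all genes. There 3 had an unadjusted p under 0.05, beside 3.53% of all genes, and the median was -0.15, beside -0.0029. Between tumour and hyperplasia the median was -0.99, beside 0.050 over all genes. There edgeR called 0, 8 were lower at an unadjusted p under 0.05, beside 9.39% of all genes, and DESeq2 called 5, beside 5.03%.

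The factors named for the receptors' promoters were present in every library. All 23 listed were tested. Between tumour and wild type edgeR called 0, beside 1.6% of all genes, 3 had an unadjusted p under 0.05, beside 20.1%, and DESeq2 called 2, beside 10.8%. The median log2 fold change was 0.22. Esr2 came nearest the threshold (log2 fold change 1.73, adjusted p = 0.0574, edgeR), at 15.4, 27.9 and 44.1 TPM in wild type and 112, 56.4 and 86.0 in tumours. Foxl2, the mutated gene, had a log2 fold change of 0.74 (adjusted p = 0.298, edgeR), and the tables count both of its alleles together. Usf1, which binds CACGTG, stood at 85.2, 89.6 and 103 TPM in wild type and at 156, 70.5 and 120 TPM in tumours. In CPM it stood at 65.9 in tumour library 2, above wild-type libraries 2 and 3 (48.2 and 52.6 CPM). Usf2, of the same family, stood at 119 CPM in both tumour libraries 1 and 2, its highest level of the 9 libraries. In TPM Usf2 stood at 148 in tumour library 1, 90.3 in tumour library 2 and 61.7 to 113 in wild type. Sp1, which binds GC boxes, stood at 10.2 to 38.3 TPM in wild type and 10.8 to 33.9 TPM in tumours. Nr5a1, a nuclear receptor of steroid-producing cells, stood at 106, 123 and 247 TPM in wild type and 137, 82.9 and 147 TPM in tumours. In CPM it stood at 266, 196 and 405 in wild type and 251, 240 and 248 in tumours. The part of these factors in the receptor levels was not tested.

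The cell types that carry the receptors were followed by their markers. The summed level of 10 luteal cell markers was 6440 to 12741 TPM in wild type, 6504 to 11292 in hyperplasia and 989 to 1298 in the tumours. In wild-type library 2, the lowest of its group, Cyp11a1 alone made up 4970 of the 6440 TPM. Single markers varied widely within wild type. Akr1c18 stood at 186, 31.4 and 2113 TPM there, Sfrp4 at 4855, 202 and 1351 and Hsd17b7 at 560, 9.46 and 24.1, while Star, Parm1 and Avpr1a were highest in library 2. Of the 10 luteal markers, 3 were called lower between tumour and wild type by edgeR, beside 1.25% of all genes. The list median was -3.26, beside 0.011 over all genes. They were Ptgfr, the prostaglandin F receptor (log2 fold change -6.71, adjusted p = 0.0287), Prlr, the prolactin receptor (-3.27, adjusted p = 0.0464), and Cyp11a1, which is on both lists, as is Star. The Ptgfr call was lost without wild-type library 1 or 3 or tumour library 1 or 3 (adjusted p = 0.0518 to 0.117, edgeR). The Prlr call was lost without any 1 library other than hyperplasia library 3 (adjusted p = 0.0504 to 0.134, edgeR). No luteal marker was at 0 except Akr1c18 in tumour library 2. The summed level of 12 granulosa cell markers was 1928 to 3013 TPM in wild type, 1088 to 3177 in hyperplasia and 2889 to 5329 in the tumours. Most of each sum was Inha alone, at 1034 to 1898 TPM in wild type, 656 to 2048 in hyperplasia and 2096 to 3885 in the tumours. The sum thus mainly follows that gene. None of the 12 markers was at 0 counts in any library. Between tumour and wild type edgeR called 0, beside 1.6% of all genes, and 4 had an unadjusted p under 0.05, beside 20.1%. Those 4 lay on both sides of 0. Esr2 and Amhr2, the receptor of the anti-Mullerian hormone, had log2 fold changes of 1.73 (adjusted p = 0.0574, edgeR) and 1.59 (adjusted p = 0.119, edgeR), and Gatm and Amh -1.32 (adjusted p = 0.0669, edgeR) and -3.79 (adjusted p = 0.121, edgeR). Amh stood at 165, 261 and 240.2 TPM in wild type, 14.1, 7.50 and 17.8 in hyperplasia and 7.93, 0.06 and 43.8 in the tumours. All 6 mutant libraries were below all 3 wild-type ones for Amh, a separation that 2.69% of all genes showed in this direction. The summed level of 9 theca cell markers was 1000.1 to 3445, 1172 to 2858 and 960.1 to 1401 TPM. Most of each sum was Aldh1a1 alone, at 812 to 2961 TPM in wild type, 1007 to 2375 in hyperplasia and 650 to 998 in the tumours. Of the 9 theca markers edgeR called 0 between tumour and wild type, and 3 had an unadjusted p under 0.05, beside 20.1% of all genes. Oocyte markers, from follicles, summed to 159 to 205 TPM in wild type, 14.8 to 92.2 in hyperplasia and 2.95 to 18.3 in the tumours, and 6 to 7 of the 10 were at 0 in each tumour. Of the 9 tested, 4 were called lower in the tumours, beside 1.25% of all genes: Zp1, Zp2 and Zp3, proteins of the egg coat, and Zar1, an egg factor. Each of these calls was lost without any 1 of the wild-type libraries, hyperplasia library 2 or any 1 of the tumours (adjusted p = 0.061 to 0.132, edgeR). Over all genes, edgeR called 0 without wild-type library 3, without tumour library 3 or with a term for the shared title stem. The part of these cell types in the receptor levels was not tested.

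Across libraries, 7 relations of the receptors were computed, with each other and with the mean log2(CPM + 1) of granulosa, theca and luteal markers. Over the 9 libraries the smallest p was that of Lhcgr with the luteal mean (r = 0.78, exact permutation p = 0.0176, rho = 0.78, exact permutation p = 0.0172). After Benjamini-Hochberg adjustment over the 7 these p-values were 0.123 for Pearson and 0.121 for Spearman. Fshr and Lhcgr had r = -0.22 (exact permutation p = 0.573) and rho = -0.48 (exact permutation p = 0.194) over the 9 libraries, r = -0.18 without wild-type library 1 and tumour library 3, and r = -0.52 without tumour library 2 alone. Fshr and the granulosa mean had r = 0.37 (exact permutation p = 0.331) and rho = 0.38 (exact permutation p = 0.312), with r = 0.55 without hyperplasia library 2 and tumour library 1 and r = 0.61 without tumour library 2 alone. Luteal means fell into separate clusters, at most 5.67 in tumours and at least 6.96 elsewhere. The luteal relation was therefore also taken over the 6 libraries that are not tumours, a change from the plan. There Lhcgr had r = 0.61 (exact permutation p = 0.192) and rho = 0.71 (exact permutation p = 0.136), with r = 0.79 in the 4 libraries left without wild-type libraries 1 and 2. With the luteal relations taken over those 6 libraries, the smallest exact permutation p over the 7, after Benjamini-Hochberg adjustment, was 0.904 for Pearson and 0.678 for Spearman. Groups of 3 are too small for a value within each.

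**Figure D5:**
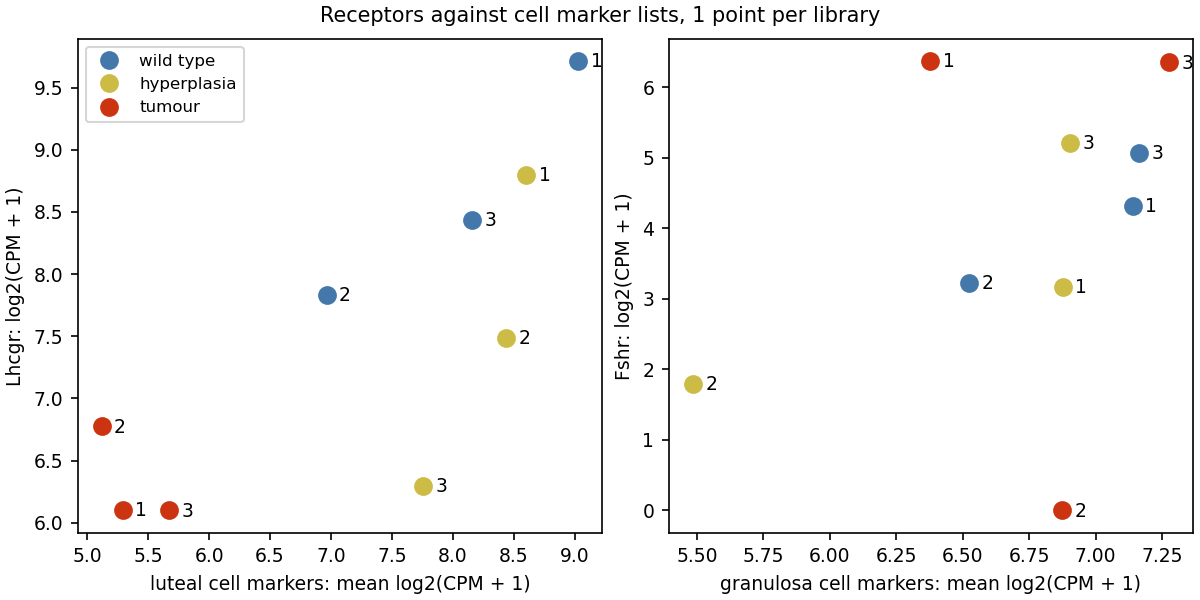
Lhcgr against the mean of the luteal cell markers (left) and Fshr against the mean of the granulosa cell markers (right), all as log2(CPM + 1), 1 point per library numbered within its group. The tumours form a cluster of their own at low luteal means and low Lhcgr. On the right, tumour library 2 has 0 Fshr at a granulosa mean inside the range of the others.

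None of the 3 tested protein-coding genes within 500 kb of either receptor was called between tumour and wild type, beside 1.6% of all genes. Foxn2, a forkhead factor, had a log2 fold change of -0.40 (adjusted p = 0.435, edgeR) between tumour and wild type and Ppp1r21, a protein of endosomes, 0.13 (adjusted p = 0.823, edgeR). Ston1, an endocytosis protein, had 0.39 (adjusted p = 0.805, edgeR) and stood at 3.98 CPM in wild-type library 1 and at 24.0 to 60.5 CPM in the other 8. Between tumour and hyperplasia Foxn2 had -0.61 (adjusted p = 0.341, edgeR), with an unadjusted p under 0.05 as for 14.1% of all genes. Gtf2a1l, a germ cell transcription factor, had too few counts to be tested. It stood at 1.24, 0.883 and 0.575 CPM in wild type, 0.268, 0.0725 and 0 in hyperplasia and 0, 0 and 0.252 in the tumours. Every tumour lay below every wild-type library, a separation shown by 13.4% of all tested genes. The tumour values were no higher than the limit of 3 counts, which was 0.252 CPM in tumour library 3. In tumour library 2, with 0 Fshr, Foxn2 stood at 17.4 CPM and Ppp1r21 at 32.1 CPM, for each the lowest of the 9 libraries.

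The genes most like each receptor over the 9 libraries were ranked by Pearson r of log2(CPM + 1) among 13631 genes, as a description of points that share library, depth and group. For Fshr they were Ces1d (r = 0.98), Psip1 (0.97), Cnmd (0.97), Tmem184a (0.97), Nrip2 (0.96) and Knop1 (0.96). Cnmd, which encodes chondromodulin, stood at 379, 1.27 and 463 CPM in tumours and 68.6 to 197 CPM in wild type. Tmem184a stood at 113, 0.488 and 120.0 CPM in tumours and 23.9 to 35.9 CPM in wild type. Both thus had the low value of tumour library 2. Psip1 and Knop1 varied over a narrow range, with Psip1 at 114 CPM in tumour library 2 and 172 CPM in tumour library 3. For Lhcgr they were Acat2 (0.97), Plch2 (0.97), Tie1 (0.96), Cd177 (0.95), Pik3r6 (0.95) and Oosp1 (0.95). Acat2, an acetyl-CoA acetyltransferase, stood at 101, 30.6 and 39.3 CPM in wild type and 17.5, 26.3 and 14.4 CPM in tumours. Tie1 is an endothelial receptor and one of the endothelial markers, and Oosp1 an oocyte protein at 0 CPM in all 3 tumours. Lhcgr ranked 8896 of 13631 for likeness to Fshr.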

How the data were processed

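Bulk RNA of 9 mouse ovaries was analysed, 3 libraries per group, grouped by the labelled genotype and disease state. The library kit was a stranded mRNA kit, per the labels' protocols. The submitters' processing notes name RSEM 1.3.1, the aligner STAR 2.7.1a, FastQC, Picard 2.8.1 and the build GRCm38, and the annotation release and strand setting are not given in the sources used here. The deposited tables hold expected counts per gene (RSEM's estimates, made by the authors), TPM and FPKM as deposited, and mean and effective transcript lengths in bases. FPKM as deposited served only as an alternative to TPM in the ratio of the receptors. All 55536 identifiers matched GENCODE M21. The deposited length of each of 34471 genes with 1 transcript was that of the annotated transcript in 100% of cases. Of the counts above 0, 25.6% were not whole. They were rounded, which left both receptors' counts as they were.

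Genes were filtered with edgeR's rule (count minimum 10, total 15), leaving 16213. With TMM scaling, edgeR 4.0.16 in R 4.3.3 gave the main quasi-likelihood test, all 9 libraries in 1 fit with group as the only term, and Benjamini-Hochberg adjusted p under 0.05 as the threshold. Tests on few values were exact permutation tests (scipy 1.17.1). Alternatives were DESeq2 1.42.0 (its test, and its size factors in edgeR), limma 3.58.1 (voom, and log2(TPM + 1)), no filter, only the groups compared, a term for the shared title stem and leaving out libraries. The edgeR script was tested on simulated data. A Fshr count of 0 was set to 3 counts for the ratio, a change from the planned test, which had no floor. The members and gene lists were chosen with earlier results of these data known, and hence no p-value over a list is given. Genes were named by a rule: the receptors, all hormone subunits and receptor relatives, up to 4 genes per list and comparison with the smallest adjusted p, protein-coding neighbours within 500 kb and the 6 genes most like each receptor. Gnas, Prkar2b, Cyp19a1, Inha, Usf1, Usf2, Sp1, Nr5a1 and the genes at 0 in tumour library 2 were added after their values were seen. The lists not described elsewhere are Sertoli cell, stromal fibroblast, smooth muscle, endothelial, macrophage and adipocyte markers. Intervals and limits cover counting error only.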

Additional observations from a re-analysis of the deposited data

How the results depend on the processing

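No paired analysis was possible because the labels carry no replicate numbers shared between groups; the title stem shared by hyperplasia library 3 and tumour library 3 was used as a term instead. Lhcgr kept its negative direction in all 4 comparisons under every alternative. DESeq2 brought it past the threshold between tumour and wild type (-2.53) and between both mutant groups and wild type (-1.76), and no low-count filter did so between tumour and wild type (-2.56). The direction of Fshr turned under limma-voom for tumour against wild type (-1.02), tumour against hyperplasia (-0.21) and mutant against wild type (-0.92). For mutant against wild type it also turned on log2(TPM + 1) (-0.19), with the stem term (-0.41) and without both libraries of that stem (-0.44). With 1 library left out, Fshr lay between 1.02 and 2.03 (tumour against wild type), -1.93 and 0.19 (hyperplasia against wild type), 1.297 and 3.37 (tumour against hyperplasia) and -0.24 and 1.09 (mutant against wild type). Lhcgr lay between -2.88 and -1.82, -1.87 and -0.29, -1.94 and -0.66, and -2.20 and -1.05 in the same order. The log2 ratio of Fshr to Lhcgr lay between -0.42 and 4.43, -1.69 and 0.85, -0.35 and 4.49, and -0.21 and 1.73. For hyperplasia against wild type it was 0.18 from counts and 0.081 with 1 TPM added. The Lhcgr length difference lay between -1126 and -765 bases for mutant against wild type, -1814 and -910.3 for tumour against wild type, -783 and -469 for hyperplasia against wild type and -1146 and -243 for tumour against hyperplasia.

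Over all genes, 259 were called between tumour and wild type, but 1747 with DESeq2, 721 without the filter, 428 on log2(TPM + 1), 8 without wild-type library 1 and tumour library 2, and 0 with the stem term or without its libraries (0 to 404 with 1 library left out). For hyperplasia against wild type the count was 0, but 18 with DESeq2, 2 without the filter, 1 on log2(TPM + 1), 3 in a fit of only these groups and 2 without wild-type library 1 and tumour library 2 (0 to 3 with 1 left out). For tumour against hyperplasia it was 30, but 816 with DESeq2, 4 with voom, 199 without the filter, 76 on log2(TPM + 1), 1 in a fit of only these groups, 12 with the stem term, and 0 without its libraries or without wild-type library 1 and tumour library 2 (0 to 128 with 1 left out). For mutant against wild type it was 2, but 591 with DESeq2, 198 with voom, 331 without the filter, 173 on log2(TPM + 1), and 0 with the stem term or without its libraries (0 to 134 with 1 left out). The causes were not tested. On log2(TPM + 1) the median of all genes lay at -0.12 for tumour against wild type, 0.13 for hyperplasia against wild type and -0.23 for tumour against hyperplasia. Without both wild-type library 1 and tumour library 2, 0 of the FSH-responsive and 0 of the LH-responsive genes were called by edgeR between tumour and wild type. Depth was not limiting for Lhcgr, with at least 804 counts in each library, and for Fshr only the 0 in tumour library 2 was at the counting limit.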

Other observations

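The other cell types of the ovary were followed by marker lists as well, each given as the lowest and highest summed TPM of a group and as the members that edgeR called between tumour and wild type. Over all genes 1.25% were called lower, 11.7% were lower at an unadjusted p under 0.05 and 20.1% had such a p in either direction. Smooth muscle markers summed to 952 to 2172 in wild type, 2179 to 5453 in hyperplasia and 179 to 794 in the tumours, with 0 of 6 called and 5 lower at an unadjusted p under 0.05. Macrophage markers summed to 209.7 to 288, 204 to 257 and 78.8 to 103, with 1 of 7 called lower, Itgam, an integrin of myeloid cells. Its call was lost without any 1 library other than hyperplasia library 3 (adjusted p = 0.0568 to 0.127, edgeR). Adipocyte markers summed to 62.4 to 106, 13.5 to 42.9 and 5.86 to 19.2, with 1 of 5 called lower, Cfd, which encodes adipsin. Its call was lost without any 1 of the wild-type libraries, hyperplasia library 2 or any 1 of the tumours (adjusted p = 0.0504 to 0.123, edgeR). Over all genes, 0 were called without wild-type library 3, without tumour library 3 or with the stem term. Endothelial markers summed to 151 to 208, 147 to 227 and 97.4 to 143, with 0 of 7 called and 4 lower at an unadjusted p under 0.05. Stromal fibroblast markers summed to 861 to 2766, 1960 to 3064 and 511 to 2946, with 0 of 7 called and 0 at an unadjusted p under 0.05. Sertoli cell markers, genes of the testis, summed to 43.2 to 158, 31.9 to 90.3 and 62.5 to 83.4, with 0 of 7 called and 3 at an unadjusted p under 0.05. Of the 6 surface epithelium markers, 0 were called and 0 had an unadjusted p under 0.05. Tumour library 2 had the lowest sum of smooth muscle, stromal and surface epithelium markers.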
